A study of Mus musculus with 12 samples.

Results

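Total RNA of sorted round spermatids was compared across all measured genes between Igf2bp3-/- mice and Igf2bp3+/- mice. The members were the genes with a mean FPKM above 0.1 over the 6 total RNA libraries, 20352 of the 28643 genes that carried a usable symbol. FPKM counts fragments per kilobase of transcript, scaled to the mapped fragments of the library, so genes within a library share a scale. A comparison between libraries also depends on the most abundant genes, as given below. The 6 libraries used here belong to a series of 12, of which the other 6 sampled mRNA on polysomes and served here only in an alternative fit. Changes are given as Igf2bp3-/- minus Igf2bp3+/- on the log2(FPKM + 0.1) scale with their standard error (SE), and on it the change of a gene at low FPKM appears smaller than it was.

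Each genotype was represented by 3 libraries from 8-week-old male mice, and cycloheximide, which arrests elongating ribosomes, was present while the spermatids were flow-sorted. The control group was heterozygous and carried the mutated allele on 1 chromosome, so no wild-type library entered the comparison, although the table heads the control columns with WT. The allele is a frameshift made by injecting Cas9 and a single guide RNA into C57BL/6 zygotes carried by KM foster mothers. By the methods of the study, homozygous males came from matings of heterozygotes or of homozygotes, and sorting used homozygous males with impaired fertility. The labels number the replicates without naming mice, the study describes them as biological replicates, and the p-values measure the spread between these libraries.

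IGF2BP3 is an RNA-binding protein with RNA recognition motifs and K-homology (KH) domains, and it is among the proteins that bind mRNA carrying N6-methyladenosine (m6A). Round spermatids are the haploid cells that follow meiosis. They build the acrosome and the first parts of the tail, transcribe many genes used only in the testis, and store mRNA for the later steps in which histones give way to transition proteins and protamines.

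The knockout rests on the site below, which is shown with the most similar site in the paralog Igf2bp2, because both transcripts were measured in the same libraries. The guide matches the antisense strand of exon 6 of 15 of Igf2bp3, within the coding sequence, at chr6:49117205-49117227 on the plus strand of GRCm38. Capitals mark the motif that Cas9 needs beside its target.
Igf2bp3: aatggctccaacaaactgggTGG
In exon 6 of 16 of Igf2bp2, at chr16:22081787-22081809 on the plus strand, the same stretch of coding sequence differs from the guide at 2 positions, A1G and T7A, with positions counted from 1 at the 5′ end of the 20-base guide and the differing bases in capitals.
Igf2bp2: GatggcAccaacaaactgggtgg
The closest site in Igf2bp1 differed from the guide at 5 positions. These are matches to the annotated transcripts, and editing at any of them was not measured here. The study sequenced predicted off-target sites and reported no off-target effect. It also reported that knockout testes had lost IGF2BP3 protein, with IGF2BP1 and IGF2BP2 unperturbed.

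The targeted gene was still transcribed in the knockout. Igf2bp3 was at 38.2, 38.6 and 33.4 FPKM in Igf2bp3+/- and at 31.7, 32.5 and 31.4 FPKM in Igf2bp3-/-, so the groups did not overlap, with a log2 difference of -0.20 ± 0.092 (SE) and a limma adjusted p of 0.335. A frameshift need not lower the transcript, and this level does not check the genotype labels. The exons of Igf2bp3 share 18.7% of their length with a gene on the opposite strand, and the sources used here do not say if fragments were assigned by strand. The other paralogs were near the floor. Igf2bp1 was at 0.651, 0.474 and 0.609 FPKM in Igf2bp3+/- and at 0.762, 0.776 and 0.849 FPKM in Igf2bp3-/- (log2 difference 0.41 ± 0.21, adjusted p = 0.376 in limma), again without overlap. Igf2bp2 stayed between 0.148 and 0.349 FPKM in all 6 libraries with overlapping groups.

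Between 23554 and 25633 genes had an FPKM above 0 in a library, and between 12046 and 12541 had an FPKM above 1. The table gives no counts, so the read depth is unknown and no counting interval was computed. Log2 values of all genes tested correlated with Pearson's r of 0.976 to 0.985 between libraries of a genotype and of 0.972 to 0.984 between genotypes, a description across genes that are not independent replicates. The most abundant entry, CT010467.1, took 9.22%, 9.38% and 13.3% of the summed FPKM in Igf2bp3+/- and 8.1%, 9.25% and 5.68% in Igf2bp3-/-. Because FPKM is relative to the whole library, its share moves all other values, and the part of this in the results was not tested beyond the rescaling given below. Igf2bp3+/- replicate 3 and Igf2bp3-/- replicate 3 stood at opposite ends of many of the patterns described here, and the medians of the lists they moved most are given without them as well.

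Few genes passed the limit for single genes, while on the FPKM scale as given many more leaned higher in the knockout. The study, with a test on counts, a p-value under 0.05 and a limit on fold change, reported more downregulated than upregulated genes in these cells. At limits of that kind, an unadjusted limma p under 0.05 with over 1.5-fold gave 594 higher and 515 lower genes here. The same p with a log2 size beyond 1.5 gave 85 higher and 73 lower. At a Benjamini-Hochberg adjusted limma p under 0.05, 40 genes rose (0.197% of those tested) and 12 fell (0.0590%). All 52 had non-overlapping groups. At an unadjusted limma p under 0.05, called the nominal limit below, there were 2107 genes higher in Igf2bp3-/- (10.4%) and 1083 lower (5.32%), and 2862 genes (14.1%) had all 3 Igf2bp3-/- libraries above all 3 Igf2bp3+/- libraries against 1767 (8.68%) the other way. These 6 shares are the background against which each gene list below is read. The median log2 change of all genes tested was 0.046, with quartiles of -0.171 and 0.239. Rescaling each library without its 10 most abundant genes moved this median to -0.074 and the calls to 32 higher and 20 lower. The median was 0.002 under quantile normalization and -0.014 without replicate 3 of both genotypes. The lean thus depended on the scaling and the libraries, and every list is read relative to the median of all genes. The number of calls was 22 without Igf2bp3+/- replicate 1, 24 without Igf2bp3+/- replicate 2 and 38 without Igf2bp3+/- replicate 3, and it was 9, 9 and 11 without Igf2bp3-/- replicates 1, 2 and 3. Without Igf2bp3-/- replicate 3 the lower genes outnumbered the higher ones, 6 against 5. Leaving out replicate 3 of both genotypes gave 10 higher and 9 lower. Agt, Gm21083, Gstm1 and Letm1 were called in all 21 alternatives that refitted the genes. Other calls described below held in fewer of them, such as Hdac3 in 9, Rpl15 and Ctsl in 7, Cfap99 in 6 and Lcn2 in 5.

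Of the 40 genes that rose, 39 were protein-coding and 34 had a mean of at least 1 FPKM, with a median level of 2.42 FPKM, and of the 12 that fell 5 were protein-coding. Their sizes ranged from 0.64 to 2.07 on the log2 scale among the genes that rose. Of all 52, 26 belonged to at least 1 of the 115 gene lists examined. The lists follow function, from the machinery of the cell to the sperm head and tail, chromatin and RNA regulators, the mitochondrial genome and the other cells of the testis.

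**Figure D1:**
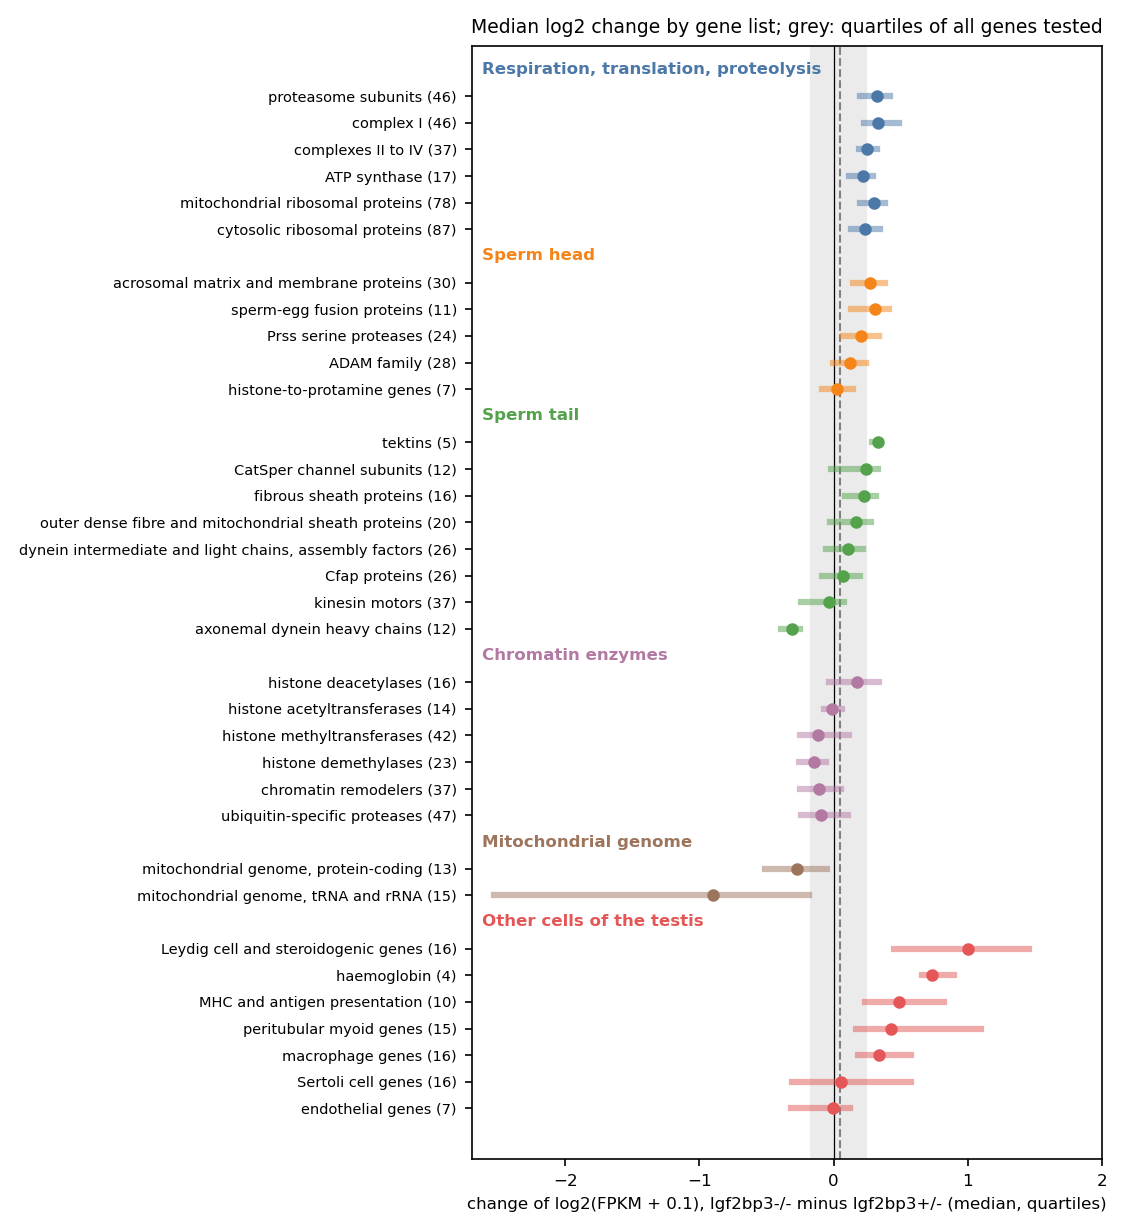
Median (points) and quartiles (bars) of the change in log2(FPKM + 0.1), Igf2bp3-/- minus Igf2bp3+/-, of gene lists grouped by function, with the number of genes tested in parentheses. The grey band and dashed line mark the quartiles and the median (0.046) of all 20352 genes; proteasome and complex I medians lie above 0.3, axonemal dynein heavy chains at -0.31 and Leydig cell genes at 1.00.

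Many genes of protein degradation and respiration were higher in the knockout at the nominal limit. Of 46 proteasome subunits, which form the protease that degrades ubiquitylated proteins, 30 were higher at the nominal limit and 0 lower, with a median log2 change of 0.32, while no subunit passed the adjusted limit. Psmb7, a catalytic subunit of the core particle, was at 54.7, 57.1 and 48.9 FPKM in Igf2bp3+/- and at 70.7, 74.2 and 70.5 FPKM in Igf2bp3-/- (log2 difference 0.42 ± 0.089, adjusted p = 0.145 in limma). Psmb6, another catalytic subunit, was at 166, 166 and 136 FPKM against 194, 232 and 259 FPKM (0.55 ± 0.13, adjusted p = 0.158 in limma). In both genes every Igf2bp3-/- library was above every Igf2bp3+/- library. All 9 genes whose symbols begin with Psmb, the beta ring of the core and its inducible forms, were higher at the nominal limit, with a median of 0.44. Psmd1, a large subunit of the regulatory cap, lay the other way at 18.8, 20.7 and 19.9 FPKM against 17.7, 19.7 and 18.8 FPKM, with overlapping groups. The mean deviation of the 46 subunits from their own means was -0.13, -0.063 and -0.28 in Igf2bp3+/- and 0.031, 0.16 and 0.28 in Igf2bp3-/-. The genotypes did not overlap in this measure, and replicate 3 of each genotype was farthest out. Without both of these libraries, 14 subunits were higher and 0 lower and the median was 0.18. Leaving out a single library gave 26, 23 and 17 higher subunits without Igf2bp3+/- replicates 1, 2 and 3, and 30, 17 and 16 without Igf2bp3-/- replicates 1, 2 and 3. After rescaling without the 10 most abundant genes, 15 subunits were higher and 2 lower, with a median of 0.19. Under quantile normalization 24 were higher and 2 lower, and the fit over all 12 libraries had 11 higher and 0 lower.

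Genes of the respiratory chain encoded in the nucleus had similar medians. Of 46 genes of complex I, which takes electrons from NADH, 24 were higher at the nominal limit and 0 lower, with a median of 0.34. Ndufb5, an accessory subunit of its membrane arm, was at 61.2, 62.5 and 51.8 FPKM in Igf2bp3+/- and at 81.1, 84.3 and 90.8 FPKM in Igf2bp3-/- (0.55 ± 0.10, adjusted p = 0.103 in limma). Ndufs7, a core subunit that holds an iron-sulfur cluster, was at 21.3, 20.9 and 18.8 FPKM against 26.5, 29.6 and 30.1 FPKM (0.50 ± 0.099, adjusted p = 0.124 in limma). Neither gene had overlapping groups, and 44 of the 46 had a log2 change above 0. All 37 genes of complexes II to IV were above 0 with a median of 0.25, and 11 of them were higher at the nominal limit and 0 lower. Examples were Sdhb, the iron-sulfur subunit of succinate dehydrogenase, at 63.9, 63.2 and 58.5 FPKM against 74.5, 87.2 and 97.3 FPKM, and Cox4i1, of cytochrome oxidase, at 266, 268 and 241 FPKM against 313, 358 and 359 FPKM. Neither passed the adjusted limit. In the ATP synthase, which uses the proton gradient, 6 of 17 genes were higher and 0 lower, with a median of 0.22. Cox8c, the testis form of a cytochrome oxidase subunit and the most abundant gene of these lists, had overlapping groups (761, 741 and 558 FPKM against 763, 779 and 746 FPKM). In complex I the mean deviation was -0.043, -0.054 and -0.40 in Igf2bp3+/- and 0.094, 0.11 and 0.29 in Igf2bp3-/-. Without replicate 3 of both genotypes the medians were 0.17 for complex I, 0.084 for complexes II to IV and 0.067 for the ATP synthase, with 16, 6 and 4 genes higher. Without Igf2bp3+/- replicate 3 alone these medians were 0.22, 0.13 and 0.12. With a single library left out, complex I had 14 higher genes without Igf2bp3-/- replicate 3 and between 17 and 25 without any other, and complexes II to IV had 6 without Igf2bp3-/- replicate 2 and between 8 and 14 without any other. The ATP synthase had 3 without Igf2bp3-/- replicate 2 and between 4 and 7 otherwise. After rescaling without the 10 most abundant genes, complex I had 16 higher genes, complexes II to IV 5 and the ATP synthase 4, with 0 lower in each.

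The same held for the ribosome of the mitochondria and, with a smaller median, for that of the cytosol. Of 78 mitochondrial ribosomal proteins, 34 were higher at the nominal limit and 0 lower, with a median of 0.30. Mrpl35, of the large mitochondrial subunit, was at 7.14, 6.97 and 6.78 FPKM in Igf2bp3+/- and at 10.0, 10.0 and 11.7 FPKM in Igf2bp3-/- (0.59 ± 0.11, adjusted p = 0.104 in limma). Of 87 cytosolic ribosomal proteins, 32 were higher and 0 lower, with a median of 0.23. Rpl15, a protein of the large subunit on chromosome 14 (18267823 to 18271391, GRCm38), was the only one that rose, from 30.1, 30.2 and 29.2 FPKM to 43.0, 50.0 and 46.8 FPKM (0.64 ± 0.090, adjusted p = 0.0353 in limma). All 3 Igf2bp3-/- libraries were above all 3 Igf2bp3+/- libraries, and 4.25% of its exonic length is shared with an opposite-strand gene. Rpl6 was at 38.3, 35.4 and 31.7 FPKM against 47.2, 52.1 and 51.5 FPKM (0.52 ± 0.099, adjusted p = 0.115 in limma), and it has 4 near-identical copies, so its reads may be split. Rps29, of the small subunit, lay the other way and was at 90.4, 97.7 and 51.0 FPKM against 68.7, 50.2 and 43.4 FPKM, a log2 difference of -0.53 ± 0.25 with overlapping groups. Without replicate 3 of both genotypes, 25 cytosolic ribosomal proteins were higher and 4 lower, with a median of 0.12, and 15 mitochondrial ones were higher and 1 lower, with a median of 0.17. The cytosolic list had 25 higher and 8 lower genes and a median of 0.11 without Igf2bp3+/- replicate 3 alone. Without Igf2bp3-/- replicate 2 the higher genes numbered 19 in the cytosolic and 22 in the mitochondrial list, and the mitochondrial list had 22 without Igf2bp3+/- replicate 3 and 16 without Igf2bp3-/- replicate 3. After rescaling without the 10 most abundant genes, 19 cytosolic genes were higher and 1 lower. In the mitochondrial list 20 were then higher and 1 lower.

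Translation initiation factors lay in both directions. Of 52 genes, 16 were higher and 3 lower at the nominal limit, with a median of 0.066 that was -0.040, with 8 higher and 10 lower, after rescaling without the 10 most abundant genes, and that lay between 0.125 and 0.13 without Igf2bp3+/- replicate 1 or 2 or Igf2bp3-/- replicate 1. Eif3m and Eif3i, of the complex that recruits the small ribosomal subunit, were higher, at 40.9, 46.0 and 38.5 FPKM against 53.5, 59.3 and 57.6 FPKM and at 34.9, 36.6 and 35.3 FPKM against 43.7, 48.4 and 52.99 FPKM. Eif4g1, the scaffold that joins the cap-binding protein to that complex, was at 52.5, 51.6 and 60.2 FPKM against 38.6, 38.7 and 33.5 FPKM (-0.57 ± 0.10, adjusted p = 0.102 in limma). None of the 3 had overlapping groups and none passed the adjusted limit. The higher genes of this list numbered 10 without Igf2bp3+/- replicate 1 and 10 without Igf2bp3-/- replicate 2. Ubiquitin-specific proteases, which remove ubiquitin, had 2 of 47 genes higher and 7 lower, with a median of -0.094 that was below 0 in every setting tried. Usp54 was at 3.10, 3.44 and 3.22 FPKM in Igf2bp3+/- and at 2.43, 2.31 and 1.96 FPKM in Igf2bp3-/- (-0.53 ± 0.14, adjusted p = 0.186 in limma).

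**Figure D2:**
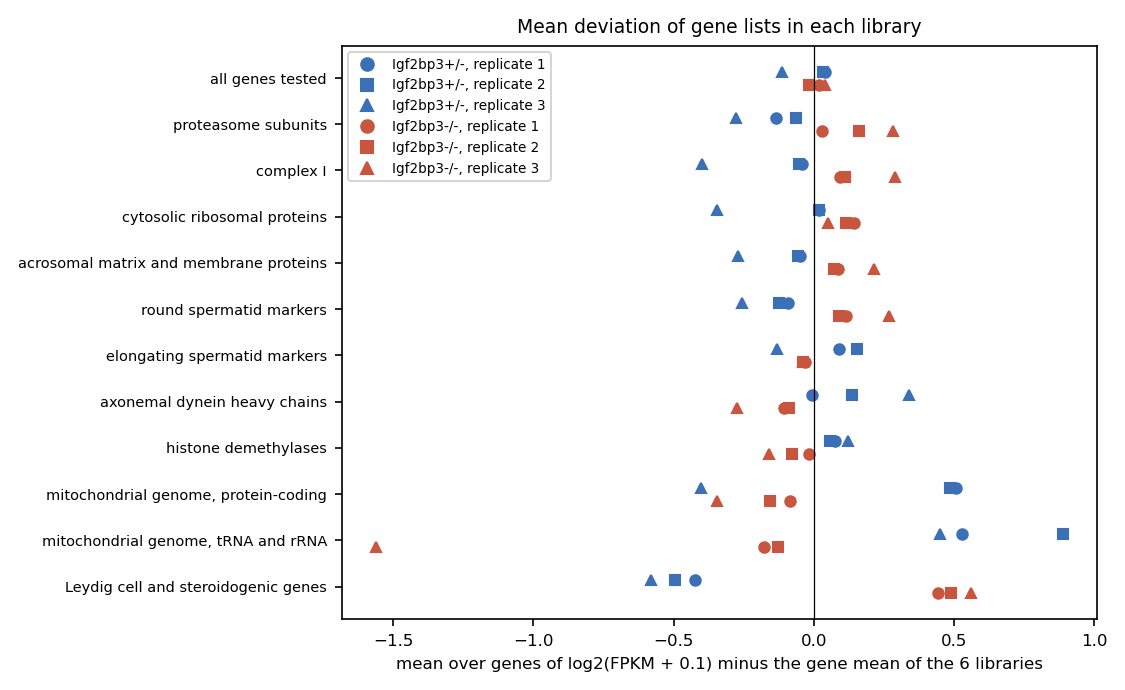
Mean deviation of gene lists in each library, as the mean over the genes of a list of log2(FPKM + 0.1) minus the mean of that gene over the 6 libraries; colours mark the genotype and symbols the replicate. Replicate 3 of each genotype lies at the ends for the proteasome, complex I and dynein heavy chains, whereas Leydig cell genes lie between -0.58 and -0.42 in Igf2bp3+/- and between 0.44 and 0.56 in Igf2bp3-/-.

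The identity of the sorted cells was checked against markers. Round spermatid markers were abundant, with a summed level of 1073 to 1197 FPKM in Igf2bp3+/- and of 1342 to 1529 FPKM in Igf2bp3-/- over 7 markers of that cell type, and the ranges did not overlap. In the longer list of 13 round spermatid genes, 9 were higher at the nominal limit and 0 lower, with a median of 0.31, and without replicate 3 of both genotypes 7 were higher and the median was 0.18. The 7 elongating spermatid markers, among them the protamines, summed to 9383 to 12082 FPKM in Igf2bp3+/- and to 10499 to 10577 FPKM in Igf2bp3-/-, with overlapping ranges. Protamine and transition protein mRNAs are already made at the round stage and do not by themselves mark elongated cells. Spermatocyte markers summed to 81.1 to 104 FPKM against 95.3 to 121 FPKM and spermatogonial markers to 3.19 to 4.33 FPKM against 3.16 to 3.87 FPKM. In sorted bulk samples such as these, fewer cells of a type and less RNA per cell cannot be told apart.

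Genes of the acrosome, the secretory vesicle over the sperm nucleus, were among the lists with the most higher members. Of 30 acrosomal matrix and membrane proteins, 15 were higher at the nominal limit and 0 lower, with a median of 0.27 against 0.046 for all genes. Acr, the protease acrosin, was at 196, 221 and 186 FPKM in Igf2bp3+/- and at 278, 285 and 307 FPKM in Igf2bp3-/- (0.53 ± 0.0925, adjusted p = 0.0956 in limma). Spaca3, a lysozyme-like protein of the acrosome, was at 197, 195 and 158 FPKM against 244, 248 and 283 FPKM (0.50 ± 0.11, adjusted p = 0.154 in limma). Spink2, a protease inhibitor of the acrosome, was at 753, 772 and 587 FPKM against 819, 824 and 905 FPKM. The 3 genes had no overlap between genotypes. Zpbp, which binds the egg coat, was at 37.95, 32.6 and 34.8 FPKM against 36.4, 34.0 and 33.6 FPKM, and Crisp2 at 533, 557 and 489 FPKM against 533, 466 and 491 FPKM, both with overlapping groups. Without replicate 3 of both genotypes, 7 of the 30 were higher and 0 lower and the median was 0.12. Leaving out only Igf2bp3+/- replicate 3 or only Igf2bp3-/- replicate 3 also left 7 higher, with medians of 0.18 and 0.21. With the trend with level removed, or after rescaling without the 10 most abundant genes, 7 were higher and 1 lower. Abundant genes had more higher members in general, with 23.8% of all genes at 30 to 100 FPKM and 33.6% above 100 FPKM.

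Proteins that act at the meeting of sperm and egg lay on the same side of 0 as the acrosome. Of 11 sperm-egg fusion proteins, 4 were higher and 0 lower, with a median of 0.31. Tmem95, a sperm membrane protein needed for fusion, was between 12.2 and 14.4 FPKM in the 3 Igf2bp3+/- samples and between 17.4 and 19.2 FPKM in the 3 Igf2bp3-/- samples (0.45 ± 0.10, adjusted p = 0.158 in limma). Dcst1 was at 67.4, 67.2 and 69.1 FPKM against 87.7, 96.9 and 98.4 FPKM (0.47 ± 0.082, adjusted p = 0.0953 in limma), and 24.2% of its exonic length is shared with a gene on the opposite strand. Of 24 serine proteases of the Prss family, 7 were higher and 0 lower, with a median of 0.21, and of the 14 chaperones and partners through which the surface protein ADAM3 matures, 3 were higher and 0 lower, with a median of 0.23. Prss46 was at 109, 102 and 95.8 FPKM against 122, 126 and 138 FPKM, and Tex101 at 7.55, 6.74 and 5.86 FPKM against 8.87, 8.53 and 10.8 FPKM, both without overlap. Adam3 itself was at 415, 443 and 457 FPKM against 453, 456 and 514 FPKM with overlapping groups, and the ADAM family as a whole had 6 of 28 genes higher and 1 lower, with a median of 0.12 that was -0.0094 after rescaling. The ADAM count was between 0 and 4 when a library was left out, and the median was 0.080 without Igf2bp3-/- replicate 3. The medians of the fusion proteins and the ADAM3 chaperones were 0.19 and 0.14 without Igf2bp3+/- replicate 3 and 0.13 and 0.13 without replicate 3 of both genotypes. The Prss list had 4 higher genes without Igf2bp3+/- replicate 1 or Igf2bp3-/- replicate 3, and its median was 0.13 without the latter and 0.13 without replicate 3 of both genotypes. With the trends with transcript length and level removed, the Prss list had 2 higher and 2 lower genes. The ADAM3 chaperones then had 1 higher and 1 lower. No gene of the sperm head lists passed the adjusted limit.

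Genes that package sperm chromatin were close to the median of all genes. Of the 7 histone-to-protamine genes, 0 passed the nominal limit in either direction, and the median was 0.027, with a sign that turned in 8 of the 22 settings. Prm1 was at 2934, 3010 and 2088 FPKM in Igf2bp3+/- and at 2410, 2183 and 1959 FPKM in Igf2bp3-/-, and Prm2 at 3252, 3218 and 2657 FPKM against 2876, 3001 and 3139 FPKM. The transition proteins Tnp1 (1317, 1345 and 771 FPKM against 1119, 1067 and 831 FPKM) and Tnp2 (2794, 2817 and 2525 FPKM against 2630, 2963 and 3219 FPKM) also overlapped. H1fnt, a linker histone of spermatids, was at 557, 608 and 575 FPKM against 551, 594 and 629 FPKM, and the testis linker histone Hist1h1t was at 0.754, 0.888 and 1.14 FPKM against 1.68, 1.28 and 0.900 FPKM. Hils1, a linker histone of condensing spermatids, was the only one of the 7 without overlap, at 459, 468 and 416 FPKM against 480, 511 and 529 FPKM (0.18 ± 0.086, adjusted p = 0.349 in limma). Of 11 replacement histone variants, 3 were higher and 0 lower, with a median of 0.17. H3f3b, which encodes histone H3.3, was at 129, 125 and 98.7 FPKM against 150, 179 and 219 FPKM (0.63 ± 0.15, adjusted p = 0.163 in limma). Its twin H3f3a was at 175, 165 and 143 FPKM against 192, 220 and 217 FPKM, with 22.8% of its exonic length shared with an opposite-strand gene.

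Lists of sperm tail genes lay on both sides of the median of all genes. Tektins, filament proteins inside the microtubule doublets, were higher in 4 of 5 members and lower in 0 at the nominal limit, with a median of 0.33. Tekt4 was at 285, 304 and 323 FPKM in Igf2bp3+/- and at 349, 404 and 438 FPKM in Igf2bp3-/- (0.38 ± 0.10, adjusted p = 0.187 in limma). CatSper genes, which encode the calcium channel of the tail, had 6 of 12 higher and 0 lower, with a median of 0.25. Catsper3, a pore subunit, was at 63.4, 66.7 and 60.0 FPKM against 77.2, 83.5 and 102 FPKM, whereas Catsper2 was at 187, 230 and 210 FPKM against 217, 170 and 125 FPKM with overlapping groups. Catsper3 had no overlap, nor had Catsperz (416, 427 and 328 FPKM against 486, 510 and 512 FPKM), which shares 46.5% of its exonic length with another gene on its own strand. The CatSper median was 0.12 without Igf2bp3+/- replicate 3 and 0.086 without replicate 3 of both genotypes, where that of the tektins was 0.22 with 3 higher genes. With the trends with transcript length and level removed, the tektin median was 0.12 with 0 higher genes. The CatSper median was then 0.085, with 2 higher and 1 lower.

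The fibrous sheath and the outer dense fibres, which wrap the axoneme, each held members that went in both directions. Of 16 fibrous sheath proteins, 8 were higher and 1 lower, with a median of 0.23 that was -0.0060 once the trends with transcript length and level were removed. Cabyr, a calcium-binding protein of the sheath, was at 308, 293 and 277 FPKM in Igf2bp3+/- and at 357, 391 and 404 FPKM in Igf2bp3-/- (0.39 ± 0.086, adjusted p = 0.152 in limma). Fsip2, a binding partner of Akap4 with a transcript of 21116 bases, was at 57.5, 61.3 and 58.3 FPKM against 52.5, 44.9 and 41.8 FPKM (-0.35 ± 0.10, adjusted p = 0.201 in limma). Neither overlapped. Akap4, the main anchoring protein of the sheath, was at 451, 534 and 517 FPKM against 477, 508 and 467 FPKM with overlapping groups. Of 20 outer dense fibre and mitochondrial sheath genes, 8 were higher and 1 lower, with a median of 0.16 that was -0.0012 under quantile normalization and -0.0023, with 2 higher and 4 lower genes, with the level trend removed. Tssk4, a kinase of the tail, was at 71.8, 71.3 and 69.2 FPKM against 88.1, 90.3 and 102 FPKM, and Smcp, of the mitochondrial capsule, was at 403, 392 and 314 FPKM against 334, 288 and 286 FPKM, with overlapping groups. Ldhc, the lactate dehydrogenase of sperm, was the most abundant of these genes at 3215, 3346 and 3057 FPKM against 3569, 3785 and 3696 FPKM, without overlap (0.20 ± 0.088, adjusted p = 0.318 in limma). The higher genes of the fibrous sheath numbered 5 without Igf2bp3-/- replicate 2, and those of the outer dense fibres 5 without Igf2bp3-/- replicate 3, where the median was 0.10. Without replicate 3 of both genotypes the medians of these 2 lists were 0.16 and 0.058.

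Motor proteins of the axoneme lay below the median of all genes. None of the 12 axonemal dynein heavy chains, the ATPases that bend the tail, had a log2 change above 0. At an unadjusted p under 0.05, 8 were lower and 0 higher, with a median of -0.31 and a range of -0.49 to -0.11. Dnah17, of the outer arm and the most abundant of them, was at 79.3, 95.4 and 113 FPKM in Igf2bp3+/- and at 74.6, 79.9 and 64.0 FPKM in Igf2bp3-/- (-0.39 ± 0.14, adjusted p = 0.255 in limma), with overlapping groups. Dnah10, of the inner arm, was at 10.3, 11.1 and 14.7 FPKM against 8.80, 9.38 and 7.36 FPKM (-0.49 ± 0.16, adjusted p = 0.222 in limma), without overlap. These are among the longest transcripts measured, 14973 and 14038 bases for the pair. Removing the trend of the log2 change with transcript length left a median of -0.11 and 1 lower gene, and leaving out replicate 3 of both genotypes left a median of -0.15 and 0 lower genes. The count was 8, 1 and 1 without Igf2bp3+/- replicates 1, 2 and 3 and 4, 6 and 0 without Igf2bp3-/- replicates 1, 2 and 3, so it rested on those libraries, while the median was below 0 in all 22 settings.

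The smaller parts of the dynein arms and their assembly factors lay on the other side, with 5 of 26 genes higher and 1 lower, and with a median of 0.11 that was -0.028 with the level trend removed, where 3 were higher and 4 lower. The higher genes numbered 3 without replicate 3 of either genotype. Lrrc6, an assembly factor, was at 54.8, 56.5 and 46.8 FPKM in Igf2bp3+/- and at 63.9, 64.8 and 70.5 FPKM in Igf2bp3-/-. Spag1, another assembly factor, was at 33.5, 31.6 and 40.7 FPKM against 24.9, 27.0 and 23.9 FPKM (-0.47 ± 0.12, adjusted p = 0.164 in limma). Neither had overlapping groups. Of 26 Cfap proteins, which are associated with cilia and flagella, 5 were higher and 0 lower at the nominal limit, and their median of 0.068 was -0.063 after rescaling, where 4 were higher and 6 lower. Without Igf2bp3-/- replicate 3 there were 3 higher. Cfap99 was the only gene of all tail lists that rose, from 13.9, 13.9 and 15.4 FPKM to 22.5, 22.2 and 23.4 FPKM (0.66 ± 0.093, adjusted p = 0.0353 in limma). It lies on chromosome 5 (34288600 to 34327327, GRCm38), in a region described below. Kinesin motors had 2 of 37 genes higher and 3 lower, with a median of -0.034 that was above 0 in 2 of the 22 settings, those without Igf2bp3+/- replicate 3 (0.0051) and without Igf2bp3-/- replicate 1 (0.014).

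Genes named for their testis expression had a median above that of all genes that became smaller without replicate 3. Of 36 Tex genes, 11 were higher and 2 lower, with a median of 0.24. It was 0.14 without Igf2bp3+/- replicate 3, 0.085 without replicate 3 of both genotypes and 0.060 with the trends of transcript length and level removed. Tex36 was at 126, 134 and 96.5 FPKM in Igf2bp3+/- and at 152, 166 and 192 FPKM in Igf2bp3-/-, and Tex24 was at 10.3, 10.1 and 8.34 FPKM against 8.07, 5.62 and 7.99 FPKM. Among transcription regulators of spermatids, Crem, the activator of many post-meiotic genes, was at 174, 182 and 157 FPKM against 240, 204 and 230 FPKM (0.39 ± 0.0965, adjusted p = 0.164 in limma), and Sox30 was at 16.3, 16.9 and 15.6 FPKM against 14.8, 12.6 and 14.2 FPKM. Both had non-overlapping groups. That list had 5 of 19 genes higher and 1 lower, with a median of 0.056 that was -0.065, with 2 higher and 3 lower, after rescaling and between 0.034 and 0.0999 with a library left out.

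Some classes of chromatin enzymes had medians below that of all genes, with few members past the nominal limit. Only 3 of 23 histone demethylases had a log2 change above 0, with 2 lower and 0 higher at the nominal limit and a median of -0.15. Jmjd6 was at 39.1, 41.6 and 45.7 FPKM in Igf2bp3+/- and at 32.1, 33.4 and 27.8 FPKM in Igf2bp3-/- (-0.44 ± 0.11, adjusted p = 0.163 in limma). Kdm4b was at 2.80, 2.71 and 3.51 FPKM against 2.097, 2.31 and 2.37 FPKM. Kdm4d, the most abundant demethylase, was at 72.4, 77.97 and 86.1 FPKM against 75.1, 80.0 and 89.6 FPKM with overlapping groups. Of 37 chromatin remodelers, 4 were lower and 0 higher, with a median of -0.11. Smarca2, an ATPase of the SWI/SNF complex, was at 65.3, 59.3 and 68.7 FPKM against 52.4, 53.1 and 47.6 FPKM (-0.34 ± 0.093, adjusted p = 0.191 in limma), and Arid2, of a related complex, was at 7.98, 8.53 and 8.72 FPKM against 6.75, 6.51 and 6.44 FPKM. Neither overlapped. Of 42 histone methyltransferases, 1 was higher and 2 lower, with a median of -0.12, and of 19 bromodomain proteins 0 were higher and 1 lower, with a median of -0.049. Their shares of lower genes, 4.76% and 5.26%, were no larger than that of all genes (5.32%). The methyltransferase median was -0.034 and -0.025 without Igf2bp3+/- replicates 1 and 2, -0.023 with a pseudocount of 1 and -0.029 without replicate 3 of both genotypes. That of the bromodomain proteins was -0.10 without Igf2bp3+/- replicate 1 and -0.0079 without replicate 3 of both genotypes, and that of the demethylases -0.097 without Igf2bp3-/- replicate 3. The demethylase, remodeler and methyltransferase medians were below 0 in all 22 settings. Dot1l, which methylates histone H3 at lysine 79, was at 33.8, 40.3 and 39.4 FPKM in Igf2bp3+/- and at 34.7, 32.3 and 26.7 FPKM in Igf2bp3-/- (-0.28 ± 0.12, adjusted p = 0.319 in limma), with overlapping groups.

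Histone deacetylases lay on the other side. Of 16 genes 4 were higher and 0 lower, and the median of 0.18 was above 0 in all 22 settings. The count was 2 without Igf2bp3+/- replicate 2 and 1 without Igf2bp3-/- replicate 2 or 3, and the median was 0.28 without Igf2bp3-/- replicate 1 and 0.090 without replicate 3 of both genotypes. Hdac3, the catalytic subunit of nuclear corepressor complexes, on chromosome 18 (37935844 to 37955016, GRCm38), rose from 9.26, 10.2 and 8.44 FPKM to 15.4, 14.7 and 16.3 FPKM (0.73 ± 0.11, adjusted p = 0.0453 in limma). Hdac1 was at 86.6, 84.9 and 79.8 FPKM against 91.2, 106 and 105 FPKM (0.26 ± 0.090, adjusted p = 0.240 in limma), without overlap. Hdac11 was at 12.9, 9.96 and 10.7 FPKM against 11.03, 8.52 and 8.50 FPKM (-0.26 ± 0.15, adjusted p = 0.427 in limma), and its groups overlapped. Hdac3 was the only gene of these chromatin enzyme lists that passed the adjusted limit. Histone acetyltransferases had 1 of 14 genes higher and 0 lower, with a median of -0.010.

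RNA regulators lay in both directions. Of 15 m6A writers and erasers, 1 was higher and 1 lower. Mettl3, the catalytic subunit of the writer, was at 1.74, 1.22 and 1.36 FPKM in Igf2bp3+/- and at 1.498, 1.68 and 1.86 FPKM in Igf2bp3-/-, and its partner Mettl14 at 0.988, 1.37 and 1.38 FPKM against 1.08, 0.787 and 0.755 FPKM, both with overlapping groups. Among 12 YTH and hnRNP proteins that read m6A, Ythdf3 was at 6.11, 6.56 and 5.95 FPKM against 6.85, 8.47 and 8.46 FPKM (0.34 ± 0.125, adjusted p = 0.256 in limma). Rbmxl2, a germ cell relative of hnRNP G that acts in splicing during meiosis, was the only gene of the RNA regulator lists that passed the adjusted limit. Rbmxl2 fell from 5.06, 3.87 and 4.10 FPKM to 1.69, 2.05 and 2.01 FPKM (-1.14 ± 0.16, adjusted p = 0.0353 in limma), without overlap, and it lies on chromosome 7 (107209445 to 107210916, GRCm38). Of 24 genes of the PIWI pathway, which guards the germline with small RNAs, 3 were higher and 0 lower, with a median of 0.14 that was 0.074 without replicate 3 of both genotypes and 0.0071, with 2 higher and 3 lower, after rescaling. Gtsf1 was at 350, 365 and 278 FPKM against 422, 450 and 498 FPKM, and the helicase gene Ddx25 at 98.2, 97.6 and 96.8 FPKM against 111, 123 and 137 FPKM, both without overlap. The 49 genes of mRNA decay were balanced, with 5 higher and 5 lower and a median of 0.00. Poly(A)-binding proteins had 0 of 12 genes past the nominal limit in either direction.

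The log2 change followed the length and the level of the transcript across all genes, and both differ between the lists above. The median was 0.17 for transcripts of 500 to 1000 bases, 0.13 for 1000 to 2000, 0.051 for 2000 to 4000, -0.048 for 4000 to 8000 and -0.15 above 8000 bases. By mean level it ran from -0.030 at 0.1 to 0.3 FPKM to 0.17 above 100 FPKM, and the share of genes higher at the nominal limit ran from 4.14% to 33.6%. Transcripts under 500 bases had a median of 0.0010 and did not continue the trend with length. With both trends removed from each library, the median was 0.16 for the proteasome, 0.18 for complex I, 0.20 for mitochondrial ribosomal proteins, 0.062 for cytosolic ribosomal proteins and 0.082 for acrosomal proteins, against -0.0020 for all genes. It was -0.076 for histone demethylases, -0.042 for chromatin remodelers and -0.17 for dynein heavy chains. Each of these lists was nearer to all genes than before and on the same side of 0.

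**Figure D3:**
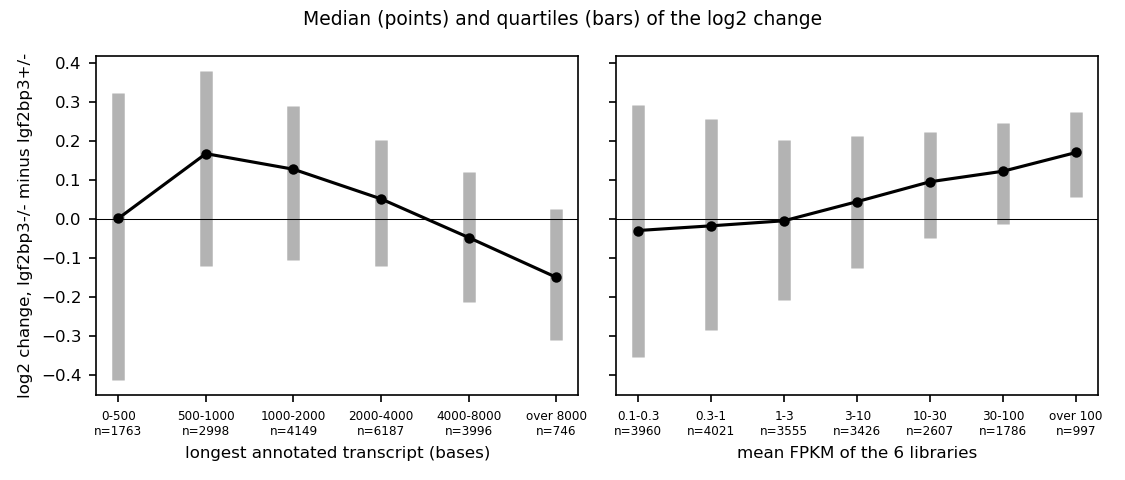
Median (points) and quartiles (bars) of the log2 change by the length of the longest annotated transcript (left, bases) and by mean FPKM over the 6 libraries (right), with the number of genes in each bin. The median goes from 0.17 at 500 to 1000 bases to -0.15 above 8000 bases, and from -0.030 in the lowest to 0.17 in the highest level bin.

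Transcripts of the mitochondrial genome lay below the median of all genes, on the other side of 0 from the nuclear genes of the respiratory chain. Their share of the summed FPKM was 0.163%, 0.163% and 0.134% in Igf2bp3+/- and 0.106%, 0.12% and 0.109% in Igf2bp3-/-, without overlap. The tRNAs and rRNAs summed to 511, 554 and 450 FPKM in Igf2bp3+/- and to 332.5, 404.5 and 346 FPKM in Igf2bp3-/-, without overlap. The mRNAs summed to 251, 228 and 167 FPKM against 173, 195 and 208 FPKM, with overlapping groups and Igf2bp3+/- replicate 3 the lowest of all 6. Of the 13 mRNAs of the mitochondrial genome, 4 were lower at the nominal limit and 0 higher, with a median of -0.27. It was -0.64 with 7 lower without Igf2bp3+/- replicate 3, -0.071 with 1 lower without Igf2bp3+/- replicate 2, and 1 was lower without Igf2bp3+/- replicate 1. Without Igf2bp3-/- replicate 2 or 3, 2 were lower. mt-Nd5, a core subunit of complex I, was at 18.96, 20.1 and 14.1 FPKM in Igf2bp3+/- and at 12.0, 13.0 and 11.9 FPKM in Igf2bp3-/- (-0.51 ± 0.14, adjusted p = 0.190 in limma), without overlap. mt-Co1, of cytochrome oxidase, was at 117, 106 and 87.7 FPKM against 85.0, 100.6 and 109 FPKM, with overlapping groups, and mt-Nd5 and mt-Co1 each have a near-identical copy elsewhere in the annotation. The large ribosomal RNA mt-Rnr2 was at 453, 489 and 403 FPKM against 308, 379 and 330 FPKM (-0.40 ± 0.11, adjusted p = 0.185 in limma), without overlap.

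Mitochondrial tRNAs and rRNAs had 7 of 15 genes lower and 0 higher, with a median of -0.90. With a library left out 7 or 8 were lower, and the median ran from -1.82 without Igf2bp3+/- replicate 2 to -0.61 without Igf2bp3+/- replicate 3, and it was -0.28 with a pseudocount of 1, -2.55 at a mean FPKM above 1 and -0.46 without replicate 3 of both genotypes. mt-Tl1, a leucine tRNA at position 2676 to 2750 of the mitochondrial genome, fell from 20.1, 26.0 and 23.5 FPKM to 3.33, 2.35 and 0.792 FPKM (-3.56 ± 0.42, adjusted p = 0.0184 in limma). mt-Tc, the cysteine tRNA, was at 1.76, 4.13 and 2.24 FPKM against 0.258 and 0.793 FPKM in Igf2bp3-/- replicates 1 and 2, and it was listed at 0 in replicate 3 (adjusted p = 0.157 in limma). These RNAs are shorter than usual sequencing fragments, and the FPKM of such short features is a poor measure of their level. Other short RNAs were on the same side. Small nuclear RNAs had 10 of 53 lower and 0 higher with a median of -0.39, and small nucleolar RNAs 13 of 68 lower and 3 higher with a median of -0.31 that was 0.12 among those with a mean FPKM above 1. Annotated microRNA genes, 123 of them tested, had 15 lower and 4 higher with a median of -0.16 that was -0.082 and -0.37 without Igf2bp3+/- replicates 2 and 3 and -0.034 with the length trend removed. The small nuclear RNA median was -0.64 and -0.25 without Igf2bp3-/- replicates 1 and 2, and the small nucleolar one -0.50 without Igf2bp3+/- replicate 3. The mean deviation of the mitochondrial tRNA and rRNA list was -1.56 in Igf2bp3-/- replicate 3 and -0.18 and -0.13 in the other 2 Igf2bp3-/- libraries, against 0.53, 0.89 and 0.45 in Igf2bp3+/-.

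Genes of the sex chromosomes, which are silenced in meiosis and partly active again in round spermatids, lay above the autosomes. Of 742 genes of the X chromosome, 127 were higher (17.1%) and 17 lower (2.29%) at the nominal limit, and the median was 0.18 against 0.041 for 18737 autosomal genes. Of 321 genes of the Y chromosome, 35 were higher (10.9%) and 11 lower (3.43%), with a median of 0.23. The share of higher Y genes was near that of all genes (10.4%), so the Y stood apart by its median rather than by that count. Many of the Y genes are near-identical copies among which reads may be split. In all 22 settings the X median was above the autosomal median, by 0.062 to 0.17, and so was the Y median, by 0.064 to 0.25. Without Igf2bp3+/- replicate 3 the X and Y medians were 0.099 and 0.14, without Igf2bp3-/- replicate 3 the Y median was 0.15, and without both of these libraries they were 0.066 and 0.055. The difference was there at every level: up to 1 FPKM the X median was 0.12 against -0.032, from 1 to 10 FPKM 0.20 against 0.011, and above 10 FPKM 0.23 against 0.11. No sex-linked gene rose past the adjusted limit. Gm14623, on the X chromosome, fell from 1.72, 0.940 and 0.452 FPKM to values listed at 0 in all 3 Igf2bp3-/- libraries (adjusted p = 0.0241 in limma). Akap14, an anchoring protein of the fibrous sheath on the X chromosome, was at 24.0, 23.9 and 24.99 FPKM in Igf2bp3+/- and at 27.9, 32.9 and 38.8 FPKM in Igf2bp3-/-, and Upf3b, a decay factor on the X chromosome, at 6.67, 5.97 and 5.65 FPKM against 8.08, 8.15 and 8.91 FPKM. Neither overlapped and neither passed the adjusted limit.

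**Figure D4:**
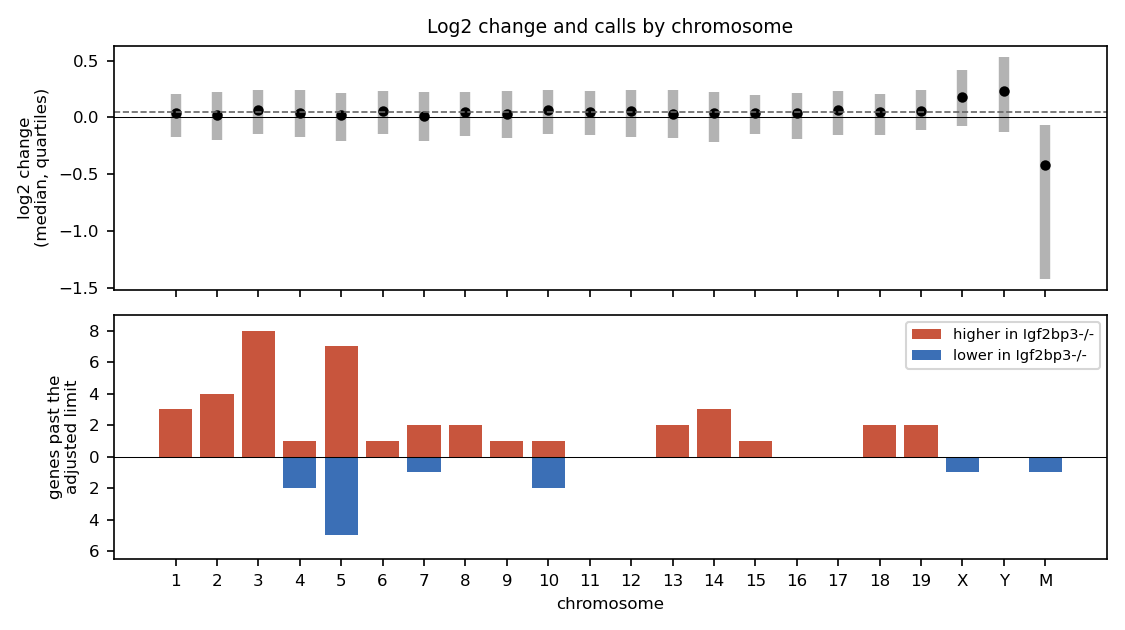
Upper panel: median (points) and quartiles (bars) of the log2 change of the genes of each chromosome, with the median of all genes dashed. Lower panel: genes past the adjusted limit, higher above and lower below the 0 line; X and Y medians lie at 0.18 and 0.23, the mitochondrial genome (M) at -0.42, and chromosome 5 holds 7 higher and 5 lower genes.

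Calls were gathered in a stretch of chromosome 5. Between 10 and 35 Mb of chromosome 5, a window chosen after the calls were seen, 12 of 276 genes passed the adjusted limit (4.35%), 7 higher and 5 lower, against 0 of 1107 on the rest of the chromosome and 40 of 18969 on other chromosomes (0.211%). These calls are not all separate signals, because 5 of them are near-identical copies described below. The span of Lhfpl3 also overlaps that of another lower call on the same strand. The median log2 change in the window was 0.00, and at the nominal limit 31 genes were higher and 35 lower. Igf2bp3 lies on chromosome 6, and the descent of this region of chromosome 5 in the mice of each genotype was not analysed here. Letm1, a calcium and proton exchanger of the inner mitochondrial membrane, rose from 3.34, 3.69 and 3.98 FPKM to 11.3, 11.8 and 13.5 FPKM (1.71 ± 0.12, adjusted p = 0.00246 in limma) and lies at 33739673 to 33782817 on GRCm38. Zfyve28, an endosomal protein at 34194893 to 34288449, rose from 0.543, 0.571 and 0.485 FPKM to 2.20, 1.86 and 1.88 FPKM (1.72 ± 0.18, adjusted p = 0.0095 in limma), and Cfap99, described above, begins just beyond its end. Lhfpl3, a membrane protein at 22746059 to 23275597, fell from 2.14, 2.00 and 1.59 FPKM to 0.341, 0.443 and 0.492 FPKM (-1.94 ± 0.21, adjusted p = 0.0118 in limma). The groups did not overlap in any of these genes.

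A second cluster of calls in the window lay in a family of near-identical genes. Gm21083 (15577333 to 15582078) rose from 6.34, 6.76 and 5.35 FPKM to 21.6, 21.1 and 24.96 FPKM (1.86 ± 0.124, adjusted p = 0.00246 in limma), and Gm21190 (15524456 to 15529222) from 9.65, 7.67 and 6.02 FPKM to 19.6, 16.0 and 22.0 FPKM (1.30 ± 0.18, adjusted p = 0.0353 in limma). Gm21149, next to them, rose as well. Gm17019 and Gm9758, less than 1 Mb away, fell by 1.83 and 1.81 on the log2 scale. All 5 have 5 to 9 near-identical copies, Speer genes expressed in the testis among them, and reads may be split between copies in other ways in each library, so that none of the 5 can be read as a change of that gene alone. The 14 named Speer genes themselves had 3 higher and 4 lower at the nominal limit, with a median of -0.065. Gm31752 (18481705 to 18490194) has no such copy and fell from 19.7, 20.9 and 16.3 FPKM to 6.43, 5.29 and 6.24 FPKM (-1.64 ± 0.13, adjusted p = 0.00315 in limma). Zfyve28, Lhfpl3, Gm21149, Gm17019 and Gm9758 were named after their values were seen.

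Genes of Leydig cells, at low levels in these sorted cells, had the highest median of the 115 lists. Leydig cells lie between the tubules and make testosterone. The list had 7 of its 16 tested genes past the adjusted limit, all higher, and 11 higher and 0 lower at the nominal limit, with a median of 1.00. Insl3, a hormone of Leydig cells, rose from 15.7, 18.0 and 10.9 FPKM to 43.8, 38.02 and 36.1 FPKM (1.42 ± 0.18, adjusted p = 0.0201 in limma), and it shares 64.8% of its exonic length with Jak3 on the same strand. Cyp17a1, an enzyme of androgen synthesis, rose from 1.84, 1.68 and 1.44 FPKM to 3.67, 4.45 and 4.25 FPKM (1.27 ± 0.15, adjusted p = 0.0189 in limma). Hsd3b1, the dehydrogenase of the same pathway, rose from 0.544, 0.546 and 0.475 FPKM to 2.36, 2.63 and 2.57 FPKM (2.07 ± 0.17, adjusted p = 0.00315 in limma). Hsd3b6, Ephx1, Akr1cl and Ptgds also rose, by 1.22, 1.57, 1.69 and 1.87 on the log2 scale, and Ephx1 and Akr1cl share 3.69% and 11.7% of their exons with other genes. None of the 7 had overlapping groups. The mean deviation of the Leydig list was -0.42, -0.49 and -0.58 in Igf2bp3+/- and 0.44, 0.49 and 0.56 in Igf2bp3-/-, and the 3 libraries of a genotype lay close together. Leaving out any 1 library left 10 or 11 of the 16 higher at the nominal limit.

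The 8 Leydig markers used in the check of cell types summed to 15.4 to 22.6 FPKM in Igf2bp3+/- and to 48.7 to 55.2 FPKM in Igf2bp3-/-. All 7 that were tested were higher at the nominal limit and 4 passed the adjusted limit. Star, which brings cholesterol into mitochondria, and Lhcgr, the receptor for luteinizing hormone, were at 0.540 to 0.713 and 0.0454 to 0.177 FPKM in Igf2bp3+/- and at 0.945 to 1.20 and 0.287 to 0.373 FPKM in Igf2bp3-/-. Hsd17b3, the last enzyme of testosterone synthesis, was below the filter. All 3 Igf2bp3+/- samples listed it at 0, and the Igf2bp3-/- samples had it at 0.12, 0.0865 and 0.0689 FPKM. The part of Leydig cells among the sorted cells in these values was not tested.

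**Figure D5:**
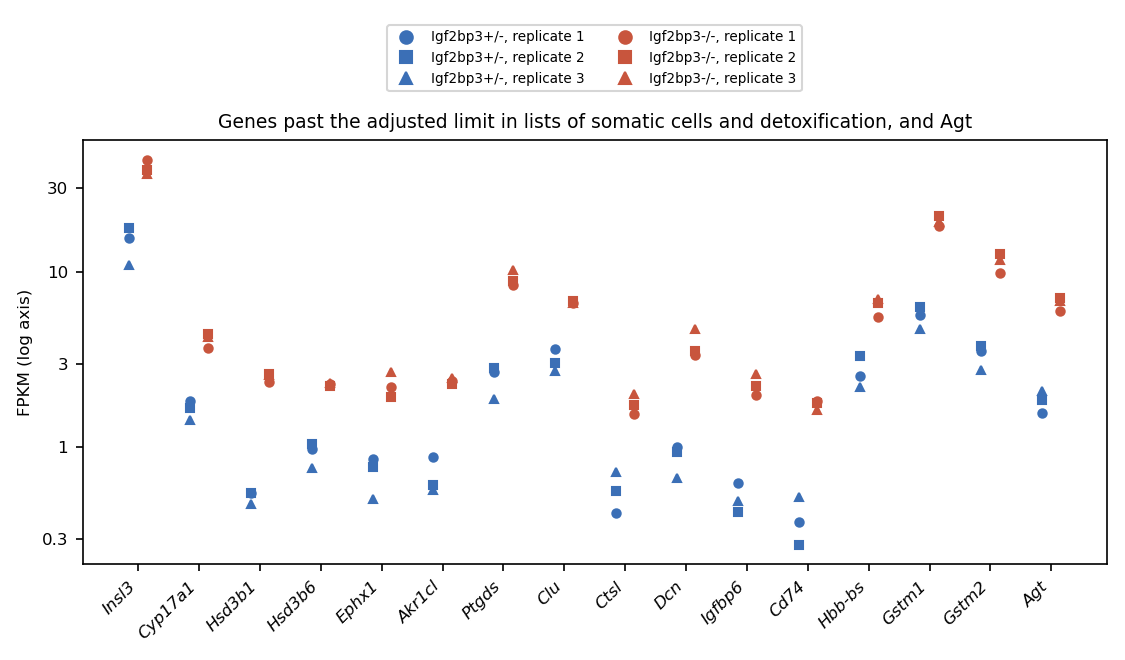
FPKM (log axis) in each library of 15 genes past the adjusted limit in lists of other testis cells and of detoxification, and of Agt, which is in none; blue marks Igf2bp3+/-, red Igf2bp3-/- and symbols the replicate. In every gene the 3 Igf2bp3-/- libraries lie above the 3 Igf2bp3+/- libraries, with values of 0.475 to 2.63 FPKM for Hsd3b1 and of 10.9 to 43.8 FPKM for Insl3.

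Markers of the other somatic cells did not move together. Sertoli cells, which nurse the germ cells, had 2 of 16 genes past the adjusted limit, with 5 higher and 0 lower at the nominal limit and a median of 0.058 that depended on the setting. It was -0.051 after rescaling, 0.010 and 0.14 without Igf2bp3+/- replicates 3 and 2, 0.19 with the trends of transcript length and level removed and 0.55 at a mean FPKM above 1. Clu, the secreted chaperone clusterin, rose from 3.63, 3.01 and 2.74 FPKM to 6.64, 6.79 and 6.66 FPKM (1.08 ± 0.14, adjusted p = 0.0201 in limma). Ctsl, the protease cathepsin L, rose from 0.418, 0.562 and 0.719 FPKM to 1.54, 1.74 and 2.00 FPKM (1.497 ± 0.22, adjusted p = 0.0453 in limma) and shares 26.8% of its exons with an opposite-strand gene. Defining Sertoli genes were near 0: Wt1, Gata4 and Fshr were below the filter, and Sox9 was at 0.0984 to 0.161 FPKM against 0.147 to 0.185 FPKM. The 9 Sertoli markers summed to 6.45 to 7.45 FPKM in Igf2bp3+/- and to 10.1 to 11.5 FPKM in Igf2bp3-/-. Clu is among these 9, while Inha, a subunit of inhibin and the other abundant one, was at 2.67, 3.13 and 2.70 FPKM against 2.85, 3.32 and 2.71 FPKM with overlapping groups.

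Peritubular myoid genes, from the contractile wall of the tubules, had 1 of 15 past the adjusted limit, with 8 higher (5 without Igf2bp3-/- replicate 2) and 1 lower at the nominal limit and a median of 0.43. Dcn, the matrix proteoglycan decorin, rose from 1.01, 0.942 and 0.665 FPKM to 3.36, 3.54 and 4.74 FPKM (2.04 ± 0.21, adjusted p = 0.0095 in limma). The 5 smooth-muscle markers of this cell type, Acta2, Myh11, Tagln, Cnn1 and Des, summed to 1.55 to 1.73 FPKM in Igf2bp3+/- and to 1.05 to 1.60 FPKM in Igf2bp3-/-, with overlapping ranges. The 7 endothelial genes had 0 higher and 1 lower, with a median of -0.0030. Macrophage genes had 4 of 16 higher and 0 lower, with a median of 0.34 (2 higher and 0.22 without Igf2bp3+/- replicate 1, and 2 higher without Igf2bp3+/- replicate 3 or Igf2bp3-/- replicate 1), and the 6 macrophage markers summed to 3.64 to 5.15 FPKM against 5.53 to 6.64 FPKM. Genes of antigen presentation had 5 of 10 higher and 0 lower with a median of 0.49, and Cd74, the chaperone of class II molecules, rose from 0.373, 0.276 and 0.519 FPKM to 1.83, 1.79 and 1.63 FPKM (1.95 ± 0.23, adjusted p = 0.0184 in limma).

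All 4 haemoglobin genes, which mark red blood cells, were higher at the nominal limit, with a median of 0.74. Hbb-bs rose from 2.55, 3.32 and 2.22 FPKM to 5.51, 6.67 and 6.98 FPKM (1.23 ± 0.17, adjusted p = 0.0353 in limma), and Hba-a1, which has a near-identical copy, was at 2.35, 2.14 and 2.68 FPKM against 3.90, 4.12 and 4.62 FPKM (adjusted p = 0.103 in limma). Both had every Igf2bp3-/- library above every Igf2bp3+/- library, and all 4 haemoglobin genes stayed higher at the nominal limit without any 1 library.

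Among detoxifying enzymes and secreted proteins, a few genes of low abundance rose. Of 19 glutathione S-transferases, which conjugate reactive molecules to glutathione, 2 passed the adjusted limit, and 8 were higher and 1 lower at the nominal limit, with a median of 0.42. Gstm1 rose from 5.68, 6.35 and 4.73 FPKM to 18.3, 20.9 and 19.4 FPKM (1.80 ± 0.13, adjusted p = 0.00246 in limma), and it has a near-identical copy over 51% of its transcript. Gstm2 rose from 3.55, 3.77 and 2.77 FPKM to 9.84, 12.7 and 11.7 FPKM (1.74 ± 0.16, adjusted p = 0.00514 in limma). The abundant Gstm5, the form of the testis, was at 980, 1078 and 903 FPKM against 1138, 1212 and 1359 FPKM (0.32 ± 0.10, adjusted p = 0.220 in limma), and Gsto1 at 1.48, 1.84 and 1.39 FPKM against 0.643, 0.427 and 1.04 FPKM. Of 4 genes of IGF-binding proteins, Igfbp6 rose from 0.625, 0.428 and 0.491 FPKM to 1.98, 2.22 and 2.63 FPKM (1.96 ± 0.20, adjusted p = 0.0095 in limma). Extracellular matrix genes had 8 of 22 higher and 0 lower with a median of 0.38 (0.19 without replicate 3 of both genotypes), and Sparc was at 1.02, 1.48 and 1.13 FPKM against 2.67, 2.25 and 2.65 FPKM without passing the adjusted limit. Collagens, a separate list, did not share this direction, with 4 of 33 higher and 4 lower and a median of -0.059. Agt, the precursor of angiotensin, which is in none of the lists and was named after its values were seen, rose from 1.57, 1.85 and 2.09 FPKM to 5.97, 7.08 and 6.83 FPKM (1.80 ± 0.15, adjusted p = 0.00315 in limma). In the 11 lists of other testis cells, matrix, immune and blood genes, 13 genes rose and 0 fell, against 0.197% and 0.0590% of all genes tested. The Leydig list held 7 of the 13, and the collagen, endothelial, macrophage and complement lists held 0. The part of RNA from such cells in the other results was not tested.

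Some stress programmes were near the median of all genes. Of 18 genes of the unfolded protein response, 1 was higher and 0 lower at the nominal limit, of 12 targets of p53 0 were past it in either direction, and of 16 apoptosis regulators 2 were higher and 0 lower. Hspa5, the main chaperone of the endoplasmic reticulum, was at 207, 178 and 185 FPKM in Igf2bp3+/- and at 158, 174 and 225 FPKM in Igf2bp3-/-, and Mdm2, a target of p53, was at 87.1, 79.5 and 78.9 FPKM against 81.3, 85.5 and 96.3 FPKM. Both overlapped between genotypes. The 13 interferon-response genes had 2 higher and 0 lower, with a median of 0.35 that was 0.20 without Igf2bp3+/- replicate 2. That median was above the one of all genes in all 22 settings. Of 17 immediate early genes, 4 were higher and 1 lower, with a median of 0.11 that was -0.019 after rescaling without the 10 most abundant genes.

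Another 6 genes past the adjusted limit belonged to lists not described above. Slc7a8, an amino acid transporter, rose from 0.260, 0.257 and 0.343 FPKM to 1.17, 1.11 and 1.18 FPKM (1.70 ± 0.21, adjusted p = 0.0201 in limma), and it was the only one of 232 solute carriers past that limit. Serping1, the inhibitor of the complement protease C1, rose from 0.970, 1.68 and 1.37 FPKM to 3.37, 3.71 and 3.64 FPKM (1.38 ± 0.20, adjusted p = 0.0385 in limma). Lcn2, a lipocalin that binds iron carriers of bacteria, rose from 2.95, 3.2 and 3.45 FPKM to 6.58, 8.16 and 5.89 FPKM (1.07 ± 0.15, adjusted p = 0.0353 in limma). These 3 genes had every Igf2bp3-/- library above every Igf2bp3+/- library, and Serping1 was among 23 serpins, of which 6 were higher at the nominal limit and 0 lower. Of 177 Tmem genes, which are named only for a membrane-spanning stretch, Tmem176a rose from 0.260, 0.169 and 0.177 FPKM to 1.08, 0.893 and 0.833 FPKM (1.78 ± 0.24, adjusted p = 0.0343 in limma). Tmem64 fell from 7.37, 6.46 and 7.498 FPKM to 3.54, 3.199 and 2.80 FPKM (-1.14 ± 0.13, adjusted p = 0.0184 in limma). 4930558K02Rik, a protein-coding gene on chromosome 1, was the most abundant of the 6 and rose from 34.0, 40.0 and 29.1 FPKM to 58.5, 65.5 and 66.1 FPKM (0.89 ± 0.125, adjusted p = 0.0353 in limma). These 3 had no overlap either.

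Grouping all genes by the letters of their symbol, without regard to function, put respiration and the proteasome among the highest. Of 237 such families with at least 8 genes tested, the highest medians were those of Ndufb (0.49, 8 of 10 higher), Serpina (0.48, 3 of 10), Ighv (0.44, 3 of 9), Psmb (0.44, 9 of 9) and Ssxb (0.39, 3 of 8). The lowest were Pcdhga (-0.52, 3 of 8 lower), Cacna (-0.33, 2 of 10), Igkv (-0.29, 1 of 9), Dnah (-0.28, 9 of 14) and Snord (-0.28, 5 of 17). Ndufb genes encode accessory subunits of complex I, Pcdhga genes clustered protocadherins and Cacna genes pore subunits of calcium channels. Members of Serpina, Ighv, Ssxb, Pcdhga and Igkv include near-identical or overlapping genes among which reads may be split.

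Of the remaining genes past the adjusted limit, 26 were in none of the lists, 17 higher and 9 lower. Of the higher genes 16 were protein-coding and 6 lay on chromosome 5, and of the lower genes 3 were protein-coding and 5 lay on chromosome 5. Among the most abundant lower genes were Gm6721 (40.0, 33.0 and 34.5 FPKM against 23.3, 20.3 and 21.6 FPKM) and Gm6713 (30.4, 28.3 and 26.9 FPKM against 19.5, 16.9 and 15.9 FPKM), which are copies of each other on chromosome 10 and share 90.1% of their exons with opposite-strand genes. Their log2 changes of -0.72 and -0.71 (adjusted p = 0.0453 and 0.0471 in limma) cannot be assigned to either.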

How the data were processed

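Total RNA was measured in flow-sorted round spermatids of 3 Igf2bp3+/- and 3 Igf2bp3-/- libraries. The authors deposited one table of FPKM values per gene, made per the labels and the methods by trimming with Trim Galore 0.6.6, alignment to GRCm38 with HISAT2 and quantification with StringTie 2.1.7, and the annotation release is not given in the sources used here. The labels name a directional poly(A) library kit read on an Illumina instrument, whereas the methods name a full-length single-tube protocol read on a DNBSEQ instrument. FPKM keeps no counts, so the read depth is unknown and the count model foreseen for raw counts could not be applied.

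Of 28668 rows, 25 with date-like symbols were dropped. Genes with a mean FPKM above 0.1 over the 6 libraries were fitted on the log2(FPKM + 0.1) scale by limma (version 3.58.1, R 4.3.3), with an intensity trend and no block, two-sided, and p-values were adjusted by the Benjamini-Hochberg method over all 20352 genes at 0.05. The labels number the replicates without naming mice, the study describes them as biological, and p-values measure the spread between these libraries. On simulated data of 20352 genes the fit recovered 70 of 100 genes changed by a log2 size of 1. It recovered 95 of 100 changed by 2, with 7 false calls. The changed genes were drawn only from those with a positive mean log2 value, and the noise was independent between genes. Shifts shared by many genes of a library were not simulated, so these figures do not measure recovery at low levels or false calls in the real libraries. Positions, transcript lengths, shared exons and near-identical copies came from GENCODE M21 on GRCm38, which matched 27860 symbols, and from BLAST+ 2.17.0. Copies and overlaps are given where a named gene has them over a substantial part of its exons. Tables and figures were made with Python 3.11.15, pandas 2.3.3, numpy 2.4.6 and matplotlib 3.10.9.

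The members and the 115 gene lists were chosen with earlier results of these data known. Lists are described by counts and medians beside all genes, with no test of a list. The mean deviation of a list in a library is the mean, over its genes, of log2(FPKM + 0.1) minus the mean of that gene over the 6 libraries. Genes named were the IGF2BP and histone-to-protamine genes, every gene past the adjusted limit in a list, the 2 members of a described list with the smallest p in each direction at a mean of at least 1 FPKM, the most abundant member, and the 3 most abundant genes past the limit in each direction that are in no list. Agt, Lhfpl3, Zfyve28, Gm14623, Gm21149, Gm17019 and Gm9758 were named after their values were seen. The alternatives changed the pseudocount, the filter, the scaling, the block, the variance model and the libraries included, and those that removed trends with length or level or left out replicate 3 of both genotypes were chosen after seeing the data.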

Additional observations from a re-analysis of the deposited data

How the results depend on the processing

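Against 52 genes past the adjusted limma limit, 40 higher and 12 lower in Igf2bp3-/-, no filter on low FPKM gave 31, of which 23 were higher, and rescaling without the 10 most abundant genes gave 20 lower genes. Library weights gave 84, of which 30 were lower. The fit over all 12 libraries gave 21 higher genes. Removing the trend with transcript length gave 81, of which 28 were lower, and removing the trend with level gave 20 lower genes and both trends 33. These last 3 alternatives, and leaving out replicate 3 of both genotypes, which gave 19 in all and 10 higher, were chosen after seeing the data. Limits of an unadjusted p under 0.05 with over 1.5-fold gave 1109 genes (594 higher, 515 lower), and the same p with a log2 size beyond 1.5 gave 158 (85 higher, 73 lower). With each library omitted in turn there were 9 to 38 genes, 5 to 27 higher and 2 to 11 lower. Fewer libraries lower what such a fit can call, and the cause of the other shifts was not tested. With the replicate number as a block, 4 genes were higher and 0 lower, 4 in all. The numbers do not pair the samples: deviations of same-numbered libraries correlated at 0.0684, 0.0163 and -0.00352. No gene past the limit changed sign in these alternatives, but without Igf2bp3-/- replicate 3 the lower genes (6) outnumbered the higher ones (5). The FPKM table carries no counts, so a difference near the floor could not be set against counting error.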
